A study of Mus musculus with 6 samples.

Results

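The subject is the Fos and Jun gene family of the AP-1 transcription factor in the frontal cortex of mice given the histone deacetylase inhibitor SAHA. The 7 members, Fos, Fosb, Fosl1, Fosl2, Jun, Junb and Jund, were chosen by gene symbol. Each was measured by 1 probe set, and together they make 7 of the 19938 genes tested. SAHA (suberoylanilide hydroxamic acid, vorinostat) blocks zinc-dependent histone deacetylases, which strip acetyl groups from lysines of histones and of many other proteins. The study compared 3 arrays from mice treated with SAHA and 3 from mice treated with vehicle, which the sample titles call saline. All were wild-type mice of the 129S6/SvEv strain, aged 8 to 12 weeks, treated for 21 days. The SAHA group received 20 mg per kg, injected into the peritoneum, and bilateral frontal cortex was taken 1 day after the last injection, following cervical dislocation. Sex is not given in the labels used here, nor do they say whether each array held RNA of a separate mouse, so the p-values rest on the scatter among these arrays, part or all of which may be technical.

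AP-1 is a dimer of leucine zipper proteins. Jun proteins pair with each other or with Fos proteins, whereas Fos proteins need a Jun partner to bind DNA. In cortical neurons Fos, Fosb and Junb are immediate early genes, transcribed within minutes of synaptic activity through calcium and MAP kinase signals and then rapidly shut off, and Jund is expressed more steadily. Fos RNA is short-lived, and its level in cortex is widely read as a trace of recent activity.

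No member passed the test over all genes. After Benjamini-Hochberg adjustment, limma called 0 of the 19938 genes (0%), whereas 3472 genes (17.4%) lay at an unadjusted p under 0.05. Within the family the differences went both ways. Fos was lower on every SAHA array than on any saline array, by 0.26 on the log2 scale. Fosl1 was higher on every SAHA array, by 0.26. Junb was lower on average, with overlapping groups, and the 95% confidence intervals of Fosb, Fosl2, Jun and Jund all held 0. At an unadjusted p under 0.05 stood 1 member that was lower, where 5.56% of all genes were, and 1 that was higher, where 11.9% were. The groups did not overlap for 1 lower member, against 10.4% of all genes, and for 1 higher member, against 13.6%, or 2 of 7 in either direction, against 23.9%. The difference was below 0 for 4 of the 7 members and for 47.1% of all genes. The median difference of the 7 members was -0.056 and that of all genes 0.011.

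Libraries and tissue markers were examined first. The array medians over all genes lay between 6.92 and 6.98 log2. The X-linked RNA Xist was at 10.9 in saline replicate 1 and between 4.63 and 4.88 on the other arrays, and the Y-linked gene Eif2s3y was at 7.80 in SAHA replicate 3 and between 9.18 and 9.25 on the others, so these 2 libraries stood apart, and values without both are given below. Saline replicate 1 also had Eif2s3y at 9.20, so it held both Xist and Y-linked RNA. The labels used here do not say whether tissue was pooled, and the part of these libraries in the group differences was not tested beyond leaving them out. Camk2a, a kinase of excitatory forebrain neurons, was between 12.3 and 12.4 on all arrays, and Slc17a7, the cortical vesicular glutamate transporter, between 10.4 and 10.6, with every SAHA array above every saline array (0.11, SE 0.060). The differences of all genes followed their signal: the median difference was 0.11 in the second decile of mean signal and -0.051 in the brightest. The members lay between the percentiles 42.4 and 78.4 of mean signal, where decile medians went from 0.062 to -0.050, so the median of the decile is given beside Fos and Fosl1. Among genes at an unadjusted p under 0.05, 31.9% were lower on the deposited values, 56.5% after median centring, 49.0% with quantile normalization and 49.7% with cyclic loess.

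Fos, the prototype of its subfamily and the usual marker of recently active neurons, was measured by probe set 10397346. Its log2 signal was 7.11, 7.14 and 7.17 in saline replicates 1 to 3 and 6.80, 6.97 and 6.88 in SAHA replicates 1 to 3. The saline arrays lay close together, and the groups were separated by a gap of 0.14. Saline arrays averaged 7.14 ± 0.033 and SAHA arrays 6.88 ± 0.081 (SD, n = 3), a difference of -0.26 (SE 0.064, 95% confidence interval -0.41 to -0.11). The level was 1.19-fold higher in saline. In limma the unadjusted p was 0.00404 and the adjusted p 0.145. Fos included, 549 of the 19938 genes had a p as small or smaller in either direction, and 104 (0.52%) of all genes were lower with such a p. An exact two-sided permutation test gave p = 0.1, the smallest that 3 arrays against 3 allow. Genes of the same signal decile had a median difference of 0.019. The difference was -0.30 after median centring and -0.29 with either quantile or cyclic loess normalization. Leaving out saline replicate 1 and SAHA replicate 3 gave -0.27. In bulk tissue, fewer cells with Fos RNA and less Fos RNA per cell cannot be told apart.

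The bases upstream of the RefSeq start sites of Fos, Junb and Jun are shown because the first pair had the lowest differences of the family and Jun, the partner of Fos, had the one nearest to 0. Each run holds 250 bases that end at the base before the start, on the coding strand, 5′ to 3′, from assembly GRCm38.p6: chr12:85473640-85473889 on the plus strand for Fos, chr8:84978749-84978998 on the minus strand for Junb, and chr4:95052223-95052472 on the minus strand for Jun. Capitals mark matches, on either strand, to TGACG (the core of the cAMP response element), TGACATCA (the AP-1-like site of Jun), TATAAA and CCAAT.
Fos, upstream window: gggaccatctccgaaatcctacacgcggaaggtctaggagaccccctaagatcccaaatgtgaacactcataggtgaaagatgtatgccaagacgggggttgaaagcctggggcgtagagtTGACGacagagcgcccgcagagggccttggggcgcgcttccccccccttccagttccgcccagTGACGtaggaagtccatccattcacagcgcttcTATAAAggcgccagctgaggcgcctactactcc
Junb, upstream window: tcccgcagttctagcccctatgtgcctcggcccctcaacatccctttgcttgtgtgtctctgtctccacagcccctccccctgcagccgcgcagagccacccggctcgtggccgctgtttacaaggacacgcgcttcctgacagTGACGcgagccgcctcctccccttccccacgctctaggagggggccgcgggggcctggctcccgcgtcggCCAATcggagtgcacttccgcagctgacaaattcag
Jun, upstream window: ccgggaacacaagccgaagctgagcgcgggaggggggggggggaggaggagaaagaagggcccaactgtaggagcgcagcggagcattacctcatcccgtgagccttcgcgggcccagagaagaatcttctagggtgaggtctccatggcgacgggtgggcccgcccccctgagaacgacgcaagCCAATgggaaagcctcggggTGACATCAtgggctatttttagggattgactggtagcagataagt

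In the Fos window TGACG occurred at bases 66 to 62 and 129 to 125 before the start, and TATAAA at 33 to 28. Junb had TGACG at 106 to 102 and CCAAT at 36 to 32. Jun had TGACATCA at 45 to 38 and CCAAT at 65 to 61. Of the 6 members with a window in the table, 3 held TGACG (Fos, Fosb and Junb), as did 17.8% of the 32851 windows of all genes. TGACATCA was found in 2.93% of those windows, TATAAA in 12.4% and CCAAT in 33.8%. The full element TGACGTCA and the canonical AP-1 site TGACTCA were in 0 of the 6, against 1.55% and 4.46% of all windows, and TGACGTCA and TGACATCA can each hold or overlap shorter matches. The CArG box, which serum response factor binds, was in 0 of 6 and in 1.47% of all. These are matches of letters in 250 bases, not measured binding. Sites further upstream were not searched, so a count of 0 does not mean that a promoter lacks the element.

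**Figure D1:**
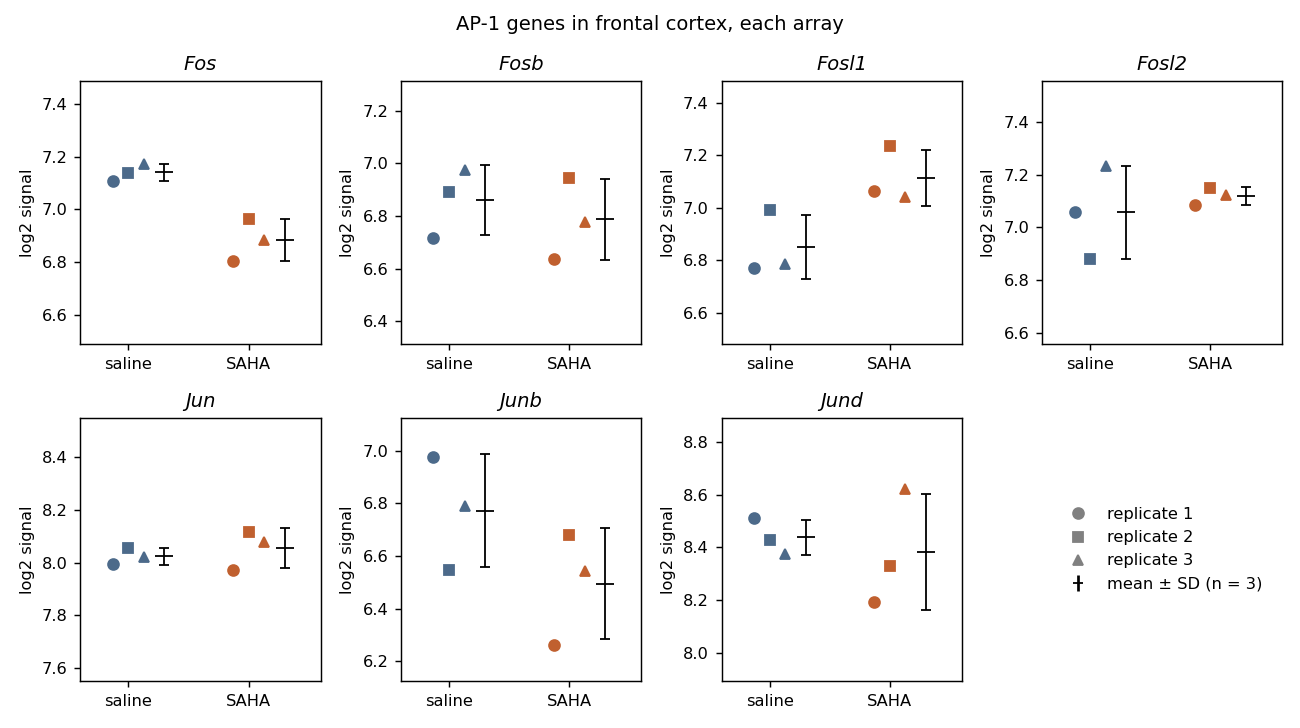
Log2 signal of the 7 genes on each array (circles, squares and triangles for replicates 1, 2 and 3; blue for saline, orange for SAHA) with the mean and SD of 3 arrays; every panel spans 1 log2 unit. The SAHA arrays of Fos lie between 6.80 and 6.97, below the saline arrays at 7.11 to 7.17, those of Fosl1 lie above the saline arrays, and the groups of the other 5 genes overlap.

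Fosb encodes a second Fos protein and, by alternative splicing, the truncated and long-lived ΔFosB, which builds up in neurons after repeated stimulation. The single probe set (10560481) did not measure these transcripts apart. Fosb was at 6.72, 6.89 and 6.97 in saline and at 6.64, 6.95 and 6.78 in SAHA. The groups overlapped, with SAHA replicate 2 above saline replicates 1 and 2. The difference was -0.073 (SE 0.099, 95% confidence interval -0.30 to 0.16; limma, adjusted p 0.722). Leaving out SAHA replicate 1 gave 0.0011, and leaving out SAHA replicate 2 gave -0.15.

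Fosl1 (Fra-1, probe set 10460585) and Fosl2 (Fra-2, probe set 10520862) encode Fos-related antigens, which lack the strong activation domain of Fos and are known to follow it more slowly in stimulated cells. Fosl1 was at 6.77, 6.99 and 6.79 in saline and at 7.06, 7.24 and 7.04 in SAHA. The groups lay 0.051 apart, with saline replicate 2 the highest of its group. The means were 6.85 ± 0.12 and 7.11 ± 0.11 (SD, n = 3), a difference of 0.26 (SE 0.085, 95% confidence interval 0.067 to 0.46). The unadjusted p in limma was 0.0150, the adjusted p 0.196 and the exact permutation p 0.1. The level was 1.20-fold higher in SAHA. Its signal decile had a median difference of 0.019, and the Fosl1 difference was 0.22 after median centring, 0.22 with quantile normalization and 0.23 with cyclic loess. The unadjusted p in limma was 0.0531 without saline replicate 1, 0.0514 without saline replicate 3, 0.0517 without SAHA replicate 2, and 0.0543 without saline replicate 1 and SAHA replicate 3 together.

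Fosl2 was at 7.06, 6.88 and 7.23 in saline and at 7.08, 7.15 and 7.12 in SAHA. All 3 SAHA arrays lay inside the saline range. The difference was 0.063 (SE 0.091, 95% confidence interval -0.15 to 0.27; limma, adjusted p 0.743), and it was -0.026 without saline replicate 2.

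Jun (probe set 10514466), the partner of Fos in the classical AP-1 dimer and the substrate of Jun kinases, varied least between arrays, over a range of 0.15. It was at 7.99, 8.06 and 8.02 in saline and at 7.97, 8.12 and 8.08 in SAHA. The groups overlapped on SAHA replicate 1. The difference was 0.032 (SE 0.063, 95% confidence interval -0.11 to 0.18; limma, adjusted p 0.815). Its sign was turned after median centring, at -0.0072, and it was 0.079 after quantile normalization. Leaving out SAHA replicate 2 gave 0.0009. Leaving out SAHA replicate 1 gave 0.074, with SAHA arrays then all above the saline arrays.

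Junb (probe set 10580282), an early gene whose protein is a weaker activator than Jun and can oppose it, varied most, over a range of 0.71. It was at 6.98, 6.55 and 6.79 in saline and at 6.26, 6.68 and 6.54 in SAHA. Saline replicate 2 lay among the SAHA arrays, so the groups overlapped although the mean difference, -0.28 (SE 0.14, 95% confidence interval -0.59 to 0.036), was the lowest of the family. The unadjusted p in limma was 0.0756 and the adjusted p 0.331. The unadjusted p was 0.0488 after median centring, 0.0465 with quantile normalization and 0.0486 with cyclic loess, and the adjusted p was then 0.278, 0.371 and 0.377. The difference depended on single libraries: it was -0.16 without SAHA replicate 1, -0.17 without saline replicate 1 and -0.39 without saline replicate 2. In limma the unadjusted p became 0.0198 when saline replicate 2 was left out and 0.0361 when SAHA replicate 2 was.

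Jund (probe set 10572456), which restrains growth in several cell types and is the main partner of ΔFosB in brain, was at 8.51, 8.43 and 8.38 in saline and at 8.19, 8.33 and 8.62 in SAHA. SAHA replicate 3, one of the libraries that stood apart, was the highest array and SAHA replicate 1 the lowest. The difference was -0.056 (SE 0.11, 95% confidence interval -0.31 to 0.19; limma, adjusted p 0.808). Leaving out SAHA replicate 1 gave 0.038, and leaving out SAHA replicate 3 gave -0.18.

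**Figure D2:**
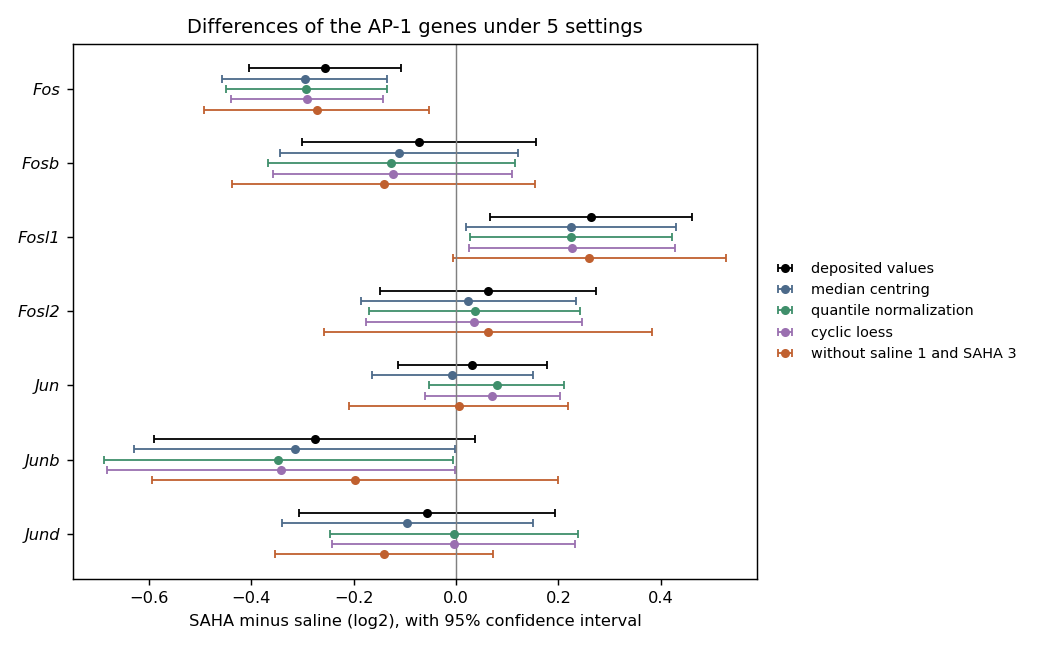
SAHA minus saline (log2, horizontal axis) of each gene with its 95% confidence interval from limma, for the deposited values, 3 other scalings, and the 4 arrays left when saline replicate 1 and SAHA replicate 3 are dropped. The intervals of Fos lie below 0 in all 5 settings, those of Fosl1 lie above 0 in 4 and reach -0.0067 without both libraries, and those of Junb end between -0.0070 and 0.20.

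The SAHA arrays were ordered alike for most members. SAHA replicate 1 was the lowest of its group for 6 of the 7 genes and SAHA replicate 2 the highest for 6 of the 7, where SAHA replicate 1 was the lowest for 36.0% of all genes and SAHA replicate 2 the highest for 35.3%. Among the saline arrays, replicate 1 was the lowest for 4 members and replicate 3 the highest for 3. The members share these libraries, so their common order is a description of the arrays.

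Fos was then set against each other member on the same array, a difference that a shift of the whole array does not move. Probe sets differ in brightness, so only the change of this difference between groups was read. Fos minus Jun was -0.89, -0.91 and -0.85 in saline and -1.17, -1.15 and -1.20 in SAHA. Each group lay close together, and the groups did not overlap. The mean difference between groups was -0.29, and the group mean went from -0.88 ± 0.033 to -1.17 ± 0.022 (SD, n = 3), with an exact two-sided permutation p of 0.1, or 0.15 after Benjamini-Hochberg adjustment over the 6 pairs; 0.1 is the smallest p that this design allows. Fos minus Fosl1 differed by -0.52 between the groups, from 0.29 ± 0.12 to -0.23 ± 0.062, Fos minus Fosl2 by -0.32 and Fos minus Fosb by -0.18. The groups did not overlap for these 3 pairs, at the same exact p of 0.1. All 6 pairs use the same Fos values, whose own groups did not overlap. The pairs are therefore not independent of each other or of the Fos difference itself. Fos minus Junb differed by 0.020 (0.37 ± 0.23 in saline and 0.39 ± 0.13 in SAHA, SD, n = 3; exact permutation p = 1), with overlapping groups, and its sign turned when saline replicate 1 was left out, at -0.099, or SAHA replicate 1, at -0.056. Fos minus Jund differed by -0.20, also with overlapping groups and an exact permutation p of 0.3. That value was -0.080 when SAHA replicate 3 was left out, and with quantile or cyclic loess normalization it was -0.29, at an exact permutation p of 0.1.

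**Figure D3:**
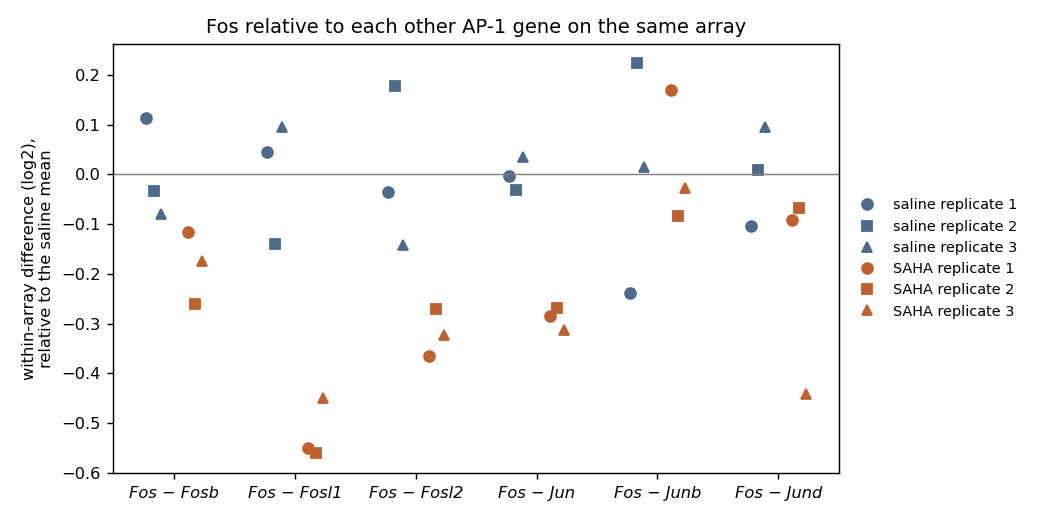
Log2 signal of Fos minus that of each other AP-1 gene on the same array, relative to the mean of the 3 saline arrays (blue saline, orange SAHA, 1 symbol per replicate). The SAHA arrays lie below the saline arrays against Fosb, Fosl1, Fosl2 and Jun, most tightly against Jun, and overlap with them against Junb and Jund.

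Genes whose profile over the 6 arrays was nearest to that of Fos were sought among the 9968 others at or above the median signal, by the root mean square distance between profiles centred on their own means. The nearest were Zc3h12b, of a family of RNases that cut messenger RNA, at 0.023 log2, Rn7sk, the 7SK RNA that holds the elongation factor P-TEFb inactive, at 0.026, Ndufb5, a subunit of respiratory complex I, at 0.031, Mtmr10, a myotubularin-related protein, at 0.031, and Herc6, an interferon-induced ubiquitin ligase, at 0.036. The median distance over all candidates was 0.13, and a gene flat over the arrays would lie at 0.14. The distance depends on the size of a change, so a gene that fell further than Fos, such as Npas4 at rank 8459, also lay far off. No listed early gene or AP-1 gene was among these 5. Fosb, Junb and several of the listed early genes, such as Ier2, lay below the median signal and were not candidates. The nearest early gene of the list below was Egr1, a zinc finger factor induced with Fos, at rank 389 with a distance of 0.075, and Jun was at rank 6108. These distances use the same arrays as the comparison and were not tested.

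**Figure D4:**
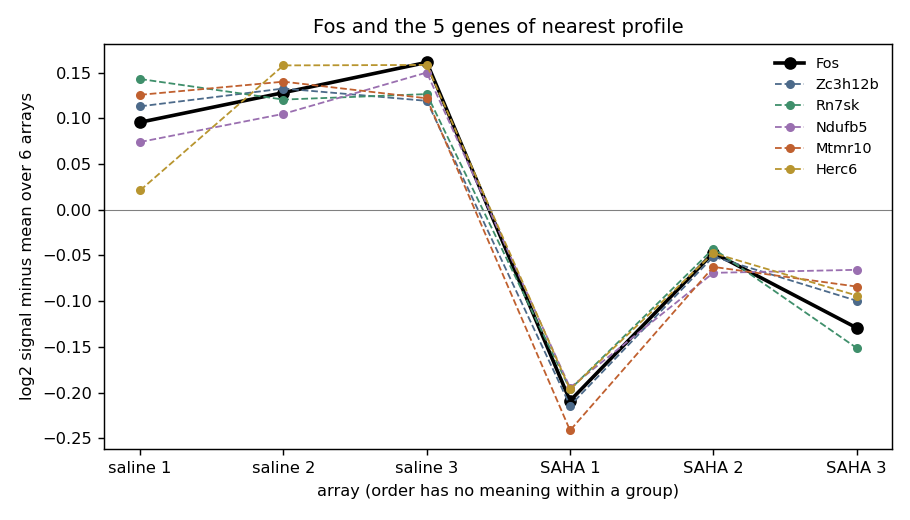
Log2 signal minus the gene's mean over 6 arrays (vertical axis) on each array, for Fos (black) and the 5 genes of nearest profile; lines only join the points of a gene. Fos lies between 0.096 and 0.16 on the saline arrays and between -0.21 and -0.047 on the SAHA arrays, and all 6 genes are lowest on SAHA replicate 1.

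Early genes that neurons induce together with Fos formed the list with the lowest median. Of 32 measured, 21 were lower (65.6%, where 47.1% of all genes were) and 11 higher. The share over all genes takes no account of signal. Of the 32, 11 lay in the 3 brightest deciles of signal, where 69.1%, 77.8% and 82.6% of all genes were lower. The median difference of the early genes was -0.11 where all genes had 0.011, and it was -0.074 without saline replicate 3. At an unadjusted p under 0.05 lay 8 lower genes. Of all genes, 5.56% were lower at that p, and between 2.3% and 10.9% by signal decile. In either direction 9 early genes lay under it (28.1%, where all genes gave 17.4%), and 0 passed over all genes in limma. The lower count was 4 without saline replicate 3, 5 without saline replicate 2 and 5 without SAHA replicate 1, and 10 when saline replicate 1 and SAHA replicate 3 were both left out. The members of smallest p were Npas4, an activity-dependent transcription factor (-0.58, SE 0.077), Egr2, a zinc finger factor (-0.46, SE 0.11), and Btg2, an antiproliferative gene (-0.59, SE 0.15). The difference of 5 early genes was larger in size than that of Fos in the same direction. Egr3, named after its values were seen, differed the other way, at 7.94, 8.08 and 8.02 in saline and 8.18, 8.24 and 8.15 in SAHA (0.17, SE 0.063; limma, adjusted p 0.230). Neither Arc, a synaptic early gene (-0.20, SE 0.14), nor Egr1 (-0.16, SE 0.082) had groups that were separate.

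Upstream of the family, the factors that act on the Fos promoter had 11 of 18 genes lower and a median of -0.020. At an unadjusted p under 0.05 lay 0 of them, where all genes gave 17.4%. Of the 18, 12 lay in the 3 brightest deciles of signal, where 69.1%, 77.8% and 82.6% of all genes were lower. The count of lower factors is therefore not read as a result about them. Quantile normalization turned the median of the factors to 0.023 and cyclic loess to 0.020. The smallest p values were those of Crtc2, a CREB coactivator (0.14, SE 0.080), Creb1, which binds cAMP response elements (-0.094, SE 0.057), and Crtc3, another such coactivator (0.071, SE 0.058), all with adjusted p of 0.377 or more in limma. Kinases that act on Fos and Jun had 10 of 14 lower and a median of -0.031. Of these 14, 8 lay in the same 3 brightest deciles, so the count of lower kinases is likewise not read as a result about them. Of these, 1 was at an unadjusted p under 0.05 (7.1%, where all genes gave 17.4%). The count was 3 without SAHA replicate 2 and 0 without either SAHA replicate 1 or 3 or saline replicate 1 or 3. On the deposited values the 1 kinase was Rps6ka3, the kinase RSK2, which phosphorylates Fos and CREB. Rps6ka3 was at 9.56, 9.41 and 9.47 in saline and 9.24, 9.38 and 9.25 in SAHA. Its groups did not overlap, and it differed by -0.19 (SE 0.069; limma, adjusted p 0.229). With quantile or cyclic loess normalization 0 kinases were lower at an unadjusted p under 0.05 and 1 was higher, and with a trend of variance on signal 3 were lower. Of the 19938 genes, 1285 were lower and 1340 higher at that p with quantile normalization. These counts were 1300 and 1318 with cyclic loess, and 1720 were lower with the trend. Mapk7, the kinase ERK5, differed by 0.13 (SE 0.058; limma, adjusted p 0.307) and Mapk8, the Jun kinase JNK1, by -0.12 (SE 0.057; limma, adjusted p 0.319).

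Leucine zipper partners of Fos and Jun had 12 of 17 genes higher and 5 lower (29.4%, where 47.1% of all genes were lower), with a median of 0.020. At an unadjusted p under 0.05 lay 0 of them, where all genes gave 17.4%. The count was 2 higher without SAHA replicate 2 and 1 lower without saline replicate 3. The smallest p values were those of Creb5 (0.15, SE 0.066), Batf3 (0.20, SE 0.11) and Atf2, the partner of Jun at its own promoter (-0.11, SE 0.061), with adjusted p of 0.299 or more in limma. Genes for the turnover of Fos and Jun RNA and protein had 12 of 16 lower and a median of -0.060. At an unadjusted p under 0.05 lay 1 (6.2%, where all genes gave 17.4%), or 2 without saline replicate 2 and 5 without SAHA replicate 2. Of the 16, 11 lay in those 3 brightest deciles, and their count of lower genes is likewise not read as a result. Cops5, also called Jab1 for its binding to the activation domain of Jun and the catalytic subunit of the COP9 signalosome, was the member of smallest p. It was at 9.69, 9.55 and 9.60 in saline and 9.27, 9.40 and 9.34 in SAHA. All SAHA arrays lay below all saline arrays, with a difference of -0.28 (SE 0.067; limma, unadjusted p 0.00333 and adjusted p 0.138). The ubiquitin ligases Itch and Cop1, which mark Jun proteins for degradation, differed by -0.15 (SE 0.065) and -0.11 (SE 0.067), with limma adjusted p-values of 0.296 and 0.427.

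Reported AP-1 target genes had 16 of 27 lower (59.3%, where 47.1% of all genes were) and 11 higher, with a median of -0.017. At an unadjusted p under 0.05 lay 1 (3.7%, where all genes gave 17.4%), which was higher. The count was 2 higher without saline replicate 2 or SAHA replicate 1, and 1 in each direction without SAHA replicate 2. With quantile or cyclic loess normalization 4 were higher and 1 lower at that p, and with a trend of variance on signal 3 were higher and 1 lower. Of the 19938 genes, 1340 were higher and 1285 lower with quantile normalization. These counts were 1318 and 1300 with cyclic loess, and 2064 and 1720 with the trend. On the deposited values the 1 gene was Mmp9, a secreted protease of the extracellular matrix, at 5.51, 5.21 and 5.61 in saline and 5.87, 5.91 and 5.86 in SAHA. The groups did not overlap, and the difference was 0.44 (SE 0.10; limma, adjusted p 0.129). Neutrophils also make Mmp9. Of their 3 measured markers, S100a8 was higher by 0.46 (SE 0.11) and S100a9 by 0.21 (SE 0.067), with separate groups. Ngp was nearly unchanged, at 0.0068 (SE 0.068). The median of these markers relative to the saline mean ran from -0.050 to 0.061 over the saline arrays and from 0.15 to 0.24 over the SAHA arrays. Their part in the Mmp9 value was not tested. Mmp9 and the 3 markers lay below the median signal of all genes (6.94 log2), where decile medians of the difference ran from 0.062 to 0.11. Vgf, a secreted neuropeptide precursor, differed by 0.17 (SE 0.074) and Sirt1, a deacetylase that SAHA does not inhibit, by -0.16 (SE 0.072), with limma adjusted p-values of 0.292 and 0.303.

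**Figure D5:**
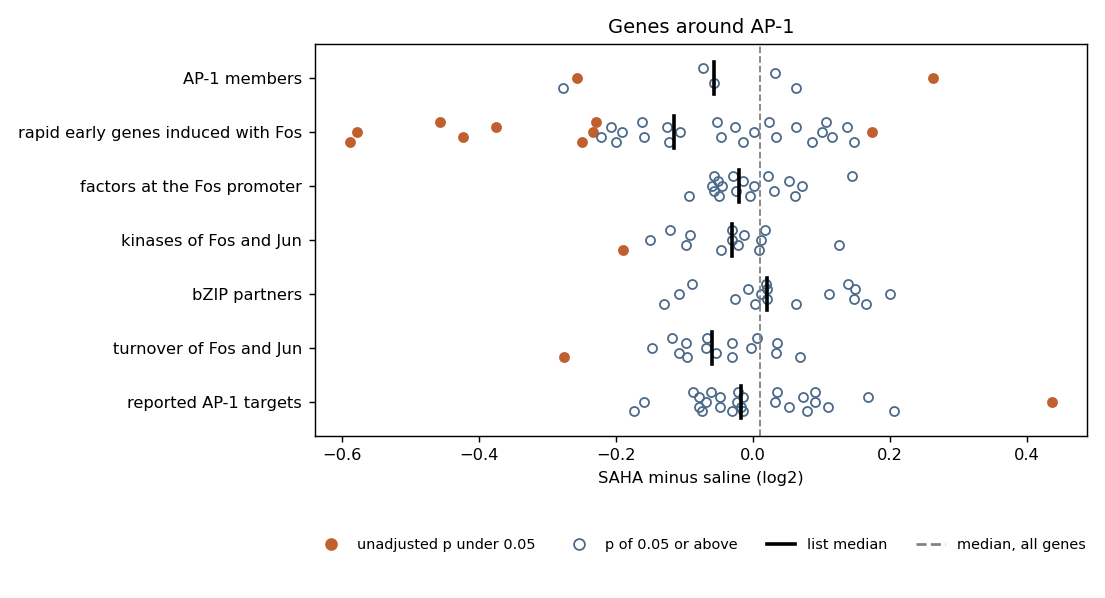
SAHA minus saline (log2, horizontal axis) of each gene in the AP-1 family and in 6 lists around it; filled points have an unadjusted p under 0.05 in limma, black bars are list medians and the dashed line is the median of all genes at 0.011. The early genes reach -0.59 and have a median of -0.11, and the medians of the other lists lie between -0.060 and 0.020.

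Markers of the cell types in the dissection were compared as well. Excitatory neuron markers had a median difference of -0.014 over 5 genes, of which 2 (40.0%, where all genes gave 17.4%) were at an unadjusted p under 0.05, in opposite directions. Emx1, a homeobox factor of cortical neurons, was at 7.49, 7.73 and 7.72 in saline and 7.93, 7.85 and 7.85 in SAHA (0.23, SE 0.080; limma, adjusted p 0.216). Neurod6, a factor of cortical excitatory neurons, was at 9.65, 9.39 and 9.41 in saline and 9.24, 9.24 and 9.30 in SAHA (-0.23, SE 0.081; limma, adjusted p 0.226). The groups of both were separate. The median was -0.015 over 6 genes for interneuron markers, -0.022 over 5 for astrocyte markers, -0.034 over 4 for oligodendrocyte markers, 0.15 over 4 for choroid plexus markers and 0.054 over 4 for endothelial markers. Both measured red cell genes were higher, Slc4a1 by 0.38 (SE 0.084) and Alas2 by 0.045 (SE 0.090). Microglial markers had a median of -0.092, with 3 of 5 lower and Aif1 at -0.21 (SE 0.062). The library medians of striatal markers were -0.17, -0.21 and 0.38 in saline and -0.21, -0.044 and 0.21 in SAHA, highest on replicate 3 of each group. The part of these marker values in the Fos and Junb differences was not tested.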

How the data were processed

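RNA of frontal cortex was measured on 6 arrays, 3 per group. Per the labels' protocols, 200 ng of total RNA per array went through whole-transcript amplification and biotin labelling. Per the submitters' processing notes the authors used Affymetrix Expression Console and RMA, with no version named, and the deposited values are log2 signals per probe set. RMA corrects background and normalises between arrays, so differences are relative to the other genes. Genome build and scan dates are not given in the sources used here. Precision is limited by the number of arrays, with a median SE of 0.077 for a log2 difference.

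Of 35556 probe sets, 21789 paired with 1 symbol in the platform annotation, 1621 with several and 12146 with none; a gene took its brightest single-symbol probe set over the 6 arrays, giving 19938 genes. Entrez identifiers of 19855 matched RefSeq (GRCm38.p6) and changed 0 symbols. Groups and replicate numbers came from the titles. With limma 3.58.1 (R 4.3.3), lmFit and eBayes were run over all genes without a block. Tests were two-sided with Benjamini-Hochberg adjustment and a threshold of 0.05, and SAHA minus saline is the direction of each difference. The fit was tested on simulated data. The members and the 6 lists were chosen with earlier results of these data known. Besides the 7 members, the rule names the 3 genes of smallest p per list, the 5 nearest to Fos in profile and fixed markers. Promoter windows of 6 members came from the RefSeq table (GRCm38.p6), and that of Fosl1 was not used here. Figures were drawn with matplotlib 3.10.9. Alternatives were other scalings, a filter at the median signal, other probe set and variance choices, array weights, the replicate number as a block, and libraries left out.

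The replicate numbers were checked for pairing by correlating, over genes, the deviations of same-numbered arrays from their group means: -0.10, -0.079 and 0.015 for replicates 1, 2 and 3, so the numbers were not taken to pair samples.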

Additional observations from a re-analysis of the deposited data

How the results depend on the processing

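Fos and Junb stayed lower and Fosl1 higher in SAHA under every alternative run, and none of the 7 members was called under any of them by limma. For Fos and Fosl1, whose groups did not overlap, only the other scalings could have turned the sign. For Junb, the probe set choices, the variance trends and the block left the difference unchanged. The adjusted p of Fos in limma lay between 0.0903 and 0.425 over 17 alternatives, and that of Fosl1 between 0.136 and 0.484. The groups of both stayed apart after median centring, quantile normalization and cyclic loess. The other alternatives kept the array values of these genes or only left arrays out. They could not make separate groups overlap, so they are no check of the separation. Fosb and Junb lay below the median signal, so the filter there gave no value for them. Over all genes limma called 0, but 27 when dimmer genes than the median signal were left out, 28 with a trend of variance on signal and 31 when that trend was fitted robustly, and 3472 were at an unadjusted p under 0.05. Members lower at that p numbered 2 in place of 1 after median centring, quantile normalization or cyclic loess, and with both trends. Lower genes at that p also rose in number over all 19938, from 1108 on the deposited values to 2024 after median centring. They numbered 1285 with quantile normalization, 1300 with cyclic loess, 1720 with the trend and 1697 with the robust trend. Jun turned to -0.0072 after median centring, which shifts every gene by the same amount. Medians after median centring were -0.019 for leucine zipper partners, -0.059 for factors at the Fos promoter, -0.070 for kinases, -0.099 for turnover genes and -0.056 for reported targets. After quantile normalization the factors were at 0.023, the kinases at 0.0015, the turnover genes at -0.029 and the partners at 0.038, and after cyclic loess these were at 0.020, -0.0043, -0.038 and 0.042; the cause was not tested. Without saline replicate 1 and SAHA replicate 3 together, 0 members were higher at an unadjusted p under 0.05, Fos minus Junb was -0.076 and the median of the targets was 0.011.

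Leaving out each library in turn, the differences ranged from -0.15 to 0.0011 for Fosb, from -0.026 to 0.15 for Fosl2 and from -0.18 to 0.038 for Jund. Fos minus Junb ranged from -0.099 to 0.13. Members at an unadjusted p under 0.05 ranged from 1 to 2 lower and from 0 to 1 higher, and the median of the factors from -0.029 to -0.010 and of the targets from -0.019 to 0.015. With the replicate block limma called 0 genes, the adjusted p of Fos was 0.227 and that of Fosl1 0.219, and no call changed. The files give no signal over background for a probe set, so detection of the dimmer members was not assessed.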
